A study of Mus musculus with 74 samples.

Results

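H3K9me3 lost and gained between the 8-cell stage and the morula of embryos from somatic cell nuclear transfer (SCNT) was compared on the 19 autosomes, per 1-kb window, gene and promoter. In SCNT the nucleus of a differentiated cell is injected into an enucleated oocyte. The comparison rested on the deposited peak lists of NT-8cell (7 H3K9me3 and 4 input libraries) and NT-Morula (6 H3K9me3 and 5 input libraries), so on 13 of the 74 libraries for the H3K9me3 side, and used every autosomal peak, 184050 in 8-cell embryos and 183163 in morulae. Both groups had cumulus cell nuclei and oocytes of B6D2F1 females, 8 to 10 weeks old, and the reconstructed oocytes were activated for 6 h with strontium and cytochalasin B and cultured in G-1 PLUS medium. Blastomeres of several embryos were pooled for each library, and zonae and polar bodies were removed. The libraries of a group were merged before peaks were called, leaving 1 list a stage, so no value here has a replicate error and no test between the stages was possible. Intervals in brackets are Wilson 95% binomial intervals and cover counting error only, and the range over autosomes is given beside the main shares. The lists give no RNA or cell marker with which the labelled stages could be checked.

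H3K9me3 is the histone mark of constitutive heterochromatin. It is written by enzymes such as SETDB1 and SUV39H1/2, is read by HP1 proteins, and is known for silencing transposable elements and for keeping gene clusters of other lineages shut. Between the 8-cell stage and the morula the blastomeres compact and polarise, and the outer and inner cells that later form trophectoderm (TE) and inner cell mass (ICM) are set apart.

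With all peaks, similar lengths of the genome were covered at both stages, to a large part at different places. Peaks covered 168 Mb (7.03% of the assembled autosomal bases) in 8-cell embryos and 188 Mb (7.86%) in morulae, a ratio of 1.12. With only peaks whose −log10 q, the peak caller's significance, reached 2, the ratio was 1.44. Of the 146278 windows of 1 kb with at least 50% of their bases in 8-cell peaks, 42.7% (42.5 to 43.0) were unmarked in morulae, and of the 167664 windows marked in morulae, 50.02% (49.8 to 50.3) had been unmarked in 8-cell embryos. These 62478 lost windows made up 2.61% of all 2395928 windows, and the 83864 gained windows 3.5%. A further 83800 windows were kept. Turnover ranged over the autosomes from 37.9% (chromosome 3) to 48.9% (chromosome 11) of 8-cell windows lost and from 45.7% (chromosome 5) to 56.4% (chromosome 3) of morula windows gained. The ratio of covered length ran from 0.965 on chromosome 11, the autosome of highest mean GC content, to 1.36 on chromosome 3, that of lowest GC content, and exceeded 1 on 17 of 19 autosomes. Along the chromosomes, the number of windows marked in morulae over that in 8-cell embryos was 1.33 in the first 10% of the length, at the centromeric end, and 1.002 in the last, where mean GC content was 40.98% and 44.2%. Between these ends the ratio did not fall evenly, with 1.12 from 30 to 40% and 1.27 from 50 to 60% of the length.

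The sequences below are examples of DNA where peaks were lost or gained. They are the middle 300 bases of the longest runs of adjacent lost and gained windows, the 300 bases before the start of Hoxb13, which of the genes of at least 2 kb lost most coverage, and the peak of highest enrichment in each list, among those of up to 300 bases, that met no peak of the other list. They were read on the plus strand of GRCm38.p6 (mm10), and capitals mark CpG dinucleotides. The first (chr7:46350351-46350650, lost, intergenic) has a GC content of 51.7%, the second (chr4:140376851-140377150, lost, intergenic) of 57%, and that before Hoxb13 (chr11:96194016-96194315) of 56.3%. All 3 were fully covered in 8-cell embryos and by no morula peak, and 3%, 8.67% and 49.7% of their bases are soft-masked.
lost, chromosome 7: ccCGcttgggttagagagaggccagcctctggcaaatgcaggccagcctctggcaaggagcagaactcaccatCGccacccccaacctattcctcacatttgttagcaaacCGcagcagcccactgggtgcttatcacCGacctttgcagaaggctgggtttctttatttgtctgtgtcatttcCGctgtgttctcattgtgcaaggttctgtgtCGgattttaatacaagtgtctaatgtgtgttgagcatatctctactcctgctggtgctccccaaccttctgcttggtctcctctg
lost, chromosome 4: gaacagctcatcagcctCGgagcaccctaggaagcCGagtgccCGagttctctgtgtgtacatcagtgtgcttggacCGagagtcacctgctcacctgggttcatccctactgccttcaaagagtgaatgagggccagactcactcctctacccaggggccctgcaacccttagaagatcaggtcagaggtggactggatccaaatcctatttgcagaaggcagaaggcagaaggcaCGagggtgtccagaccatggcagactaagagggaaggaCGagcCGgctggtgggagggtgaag
lost, before Hoxb13: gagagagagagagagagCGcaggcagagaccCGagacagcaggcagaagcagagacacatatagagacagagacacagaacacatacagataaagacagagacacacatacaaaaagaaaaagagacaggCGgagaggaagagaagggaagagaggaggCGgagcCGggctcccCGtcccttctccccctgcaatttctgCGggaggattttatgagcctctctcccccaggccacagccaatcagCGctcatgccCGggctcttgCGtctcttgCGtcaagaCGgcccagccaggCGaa
The middles of both gained stretches were soft-masked at every base, that is, written in lower case in the reference because they belong to known repeats. The one on chromosome 3 (chr3:3017351-3017650, intergenic, near the centromeric end) was covered by no 8-cell peak and in full in morulae, and its GC content of 50.7% and 11 CpG are near those of the lost sequences, which hold 6 (chromosome 7), 7 (chromosome 4) and 13 CpG (before Hoxb13). The one on chromosome 7 (chr7:64489351-64489650, intergenic) was covered to 52.3% in 8-cell embryos and in full in morulae, has a GC content of 42% and no CpG, and matched itself at 87.5% of bases when shifted by 140 bases.
gained, chromosome 3: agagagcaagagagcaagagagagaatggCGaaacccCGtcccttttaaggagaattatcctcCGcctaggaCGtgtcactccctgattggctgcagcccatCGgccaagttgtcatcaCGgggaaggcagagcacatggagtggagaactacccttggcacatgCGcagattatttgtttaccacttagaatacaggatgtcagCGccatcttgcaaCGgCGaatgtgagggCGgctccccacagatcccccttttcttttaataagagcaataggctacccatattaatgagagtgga
gained, chromosome 7: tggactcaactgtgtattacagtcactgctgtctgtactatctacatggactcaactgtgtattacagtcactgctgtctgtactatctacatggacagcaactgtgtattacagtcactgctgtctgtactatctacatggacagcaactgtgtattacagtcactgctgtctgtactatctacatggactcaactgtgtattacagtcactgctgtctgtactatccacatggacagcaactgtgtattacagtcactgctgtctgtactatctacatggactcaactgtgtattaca
The narrow peaks of highest enrichment were simple repeats. The 8-cell peak of 137 bp (chr11:25100070-25100206, intergenic, fold 41.4) matched itself at 93.2% of bases when shifted by 5 bases, and the morula peak of 138 bp (chr2:161520351-161520488, intergenic, fold 71.6) had a GC content of 2.17%. Neither was covered by a peak of cumulus cells (CC), 2-cell, 4-cell, ICM or TE. Whether misplaced reads gave rise to these narrow peaks was not tested.
8-cell peak, chromosome 11: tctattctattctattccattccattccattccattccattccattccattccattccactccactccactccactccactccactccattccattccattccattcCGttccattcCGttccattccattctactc
morula peak, chromosome 2: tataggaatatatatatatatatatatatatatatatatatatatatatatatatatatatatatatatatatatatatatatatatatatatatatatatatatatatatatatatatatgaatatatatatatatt

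Lost windows were richer in GC than gained windows. The median GC content was 46.4% in kept, 45.6% in lost and 42.9% in gained windows, against 41.7% over all windows, and the lost median lay above the gained median on 19 of 19 autosomes. Windows below 40% GC made up 7.62% (7.42 to 7.83) of the lost and 25.3% (25.03 to 25.6) of the gained windows, and 19.2% and 40.7% where any covered base marked a window. Among windows of 36 to 38% GC, 0.952% were marked in 8-cell embryos and 3.58% in morulae, while among windows of 50 to 55% GC the shares were 13.6% and 10.2%. The order of the stages turned at about 46% GC. Base composition moved with the stage over the whole genome. GC-dependent recovery of DNA in the libraries was not measured, and its part in the result was not tested.

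**Figure D1:**
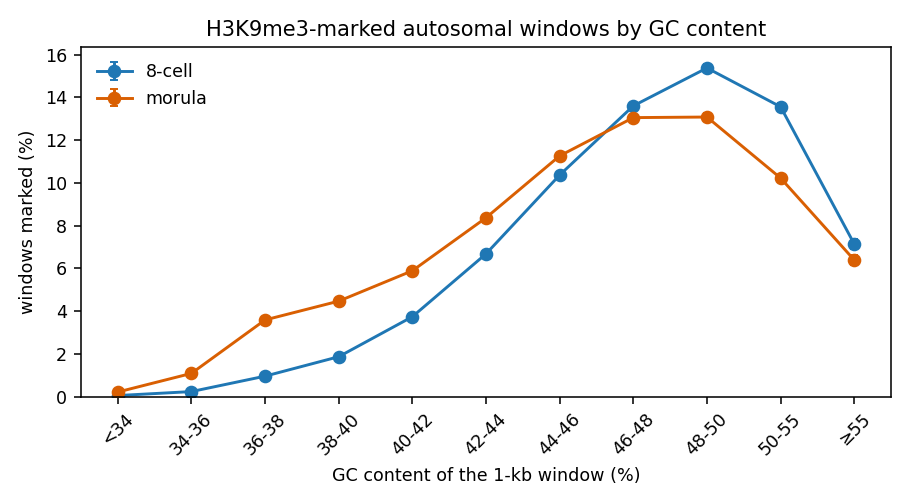
Percentage of 1-kb autosomal windows marked by H3K9me3 peaks (y axis) by GC content of the window (x axis, %), in 8-cell embryos and in morulae, with Wilson 95% intervals mostly smaller than the points. The morula curve lies above the 8-cell curve below 46% GC, with 3.58% against 0.952% at 36 to 38%, and below it from there on, with 10.2% against 13.6% at 50 to 55%.

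Repeats separated the lost from the gained windows at equal GC content as well. At least 50% of the bases were soft-masked in 51.6% of kept, 18.97% (18.7 to 19.3) of lost and 50.7% (50.3 to 51.0) of gained windows, against 18.9% of windows unmarked at both stages. On each of the 19 autosomes the gained windows were more soft-masked than the lost ones. Within the narrow range of 44 to 46% GC, a mean of 30.8% of the bases were soft-masked in lost and 47.4% in gained windows, and at 50 to 55% GC the means were 20.2% and 41.6%. The share of windows marked in morulae over that in 8-cell embryos was 0.800 for windows with up to 25% soft-masked bases and 1.65 for windows with at least 95%. Windows of at least 95% soft-masked bases that were marked in 8-cell embryos were lost in 14.5% (14.1 to 14.9) of cases, and windows with up to 25% in 58.8% (58.4 to 59.2). The reference does not name the repeat families, so LTR and LINE elements were not told apart. Windows that touch a protein-coding exon made up 7.02% of the lost, 3.57% of the gained and 10.6% of all windows.

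The other deposited lists placed lost and gained windows differently. They come from other libraries than those compared here. Of the lost windows 18.5% (18.2 to 18.8) were marked in ICM or TE of SCNT blastocysts, of the gained windows 52.9% (52.5 to 53.2), of the kept windows 73.9%, and of windows unmarked at both stages 2.73%. Where any covered base marked a window, the shares of lost and gained windows were 6.72% and 24.9%. The difference held in every GC range, for example 19.6% against 51.9% at 44 to 46% GC and 12.9% against 55.6% at 50 to 55% GC. Looking back, 35.6% of the lost and 27.7% of the gained windows were marked at the 4-cell stage, and 18.9% and 37.5% in CC, the nuclear donors. In any of CC, 2-cell and 4-cell embryos, 56.2% (55.9 to 56.6) of the gained and 51.1% (50.7 to 51.5) of the lost windows were marked. Windows marked in none of the other 8 lists were 36.1% of the lost and 20.4% of the gained windows. The 816 gained windows of at least 55% GC stood apart from the general trend, with 73.1% of bases soft-masked, 74.1% marked in CC and 87.99% marked in ICM or TE.

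**Figure D2:**
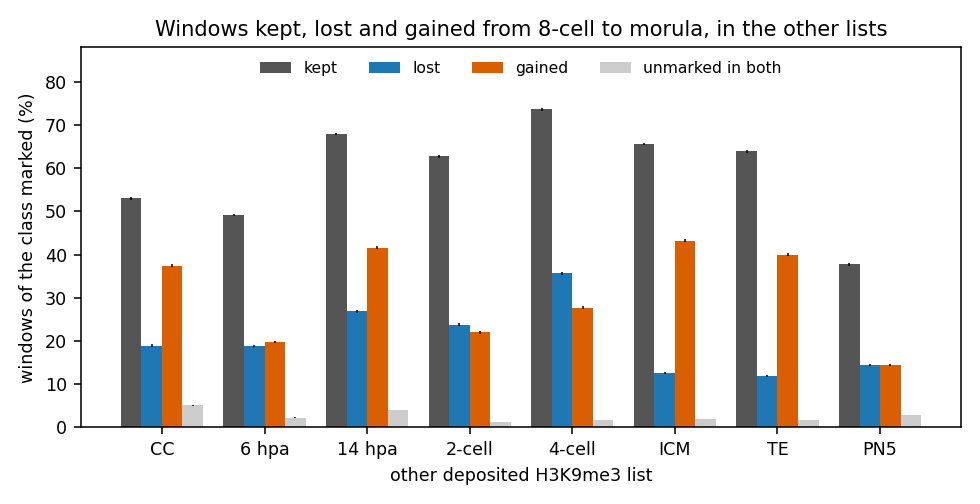
Percentage of windows (y axis) that were kept, lost, gained or unmarked at both stages between the 8-cell stage and the morula and that were marked in each other deposited list (x axis: cumulus cells, 6 and 14 h post activation, 2-cell, 4-cell, inner cell mass, trophectoderm, and fertilized zygotes at pronuclear stage 5), with Wilson 95% intervals. In ICM 43.2% of gained and 12.6% of lost windows were marked, and at the 4-cell stage 27.7% of gained and 35.6% of lost windows.

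Peaks were broader in morulae. Peaks of at least 5 kb numbered 2555 (17.4 Mb) in 8-cell embryos and 3850 (27.8 Mb) in morulae, those of at least 10 kb 160 and 370, and the median width was 574 and 614 bp. Of the morula peaks of at least 5 kb, 0.130% met no 8-cell peak and 69.8% lay over 2 or more 8-cell peaks. Conversely, 44.8% of the 8-cell peaks of at least 5 kb lay over 2 or more morula peaks. Of the gained windows 37.9% (37.6 to 38.3) lay next to a window marked in 8-cell embryos, and 36.3% (35.95 to 36.7) of the lost windows next to one marked in morulae, against 5.47% and 6.48% of windows unmarked at both stages. Most changes were short, since 80.5% of gained runs and 81.9% of lost runs were 1 window long. Peaks that met no peak of the other list were narrow and made up 39.5% of 8-cell peaks (median width 395 bp) and 42.8% of morula peaks (388 bp).

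The authors' fold enrichment over input was lower where the mark was lost. The median 8-cell fold was 3.13 in kept and 2.87 in lost windows. Windows of an 8-cell fold below 2.6 were still marked in morulae in 34.5% (33.6 to 35.4) of cases and those of at least 4 in 90.4% (89.4 to 91.3). A gained window had a median morula fold of 3.13 against 3.47 in kept windows. In kept windows the morula fold exceeded the 8-cell fold in 75.4% of cases, with a median ratio of 1.12. Where a list has no peak, H3K9me3 was below the calling level and not shown to be absent.

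Among the 20807 protein-coding genes, 5351 were covered more and 3955 less in morulae by any amount, while large differences were more often losses, though not once weak peaks were dropped from both lists. A change of at least 25 percentage points in the share of the gene span covered by peaks was found for 371 genes (1.78%) downwards and 180 genes (0.865%) upwards. With at least 10 points the counts were 1043 (5.01%) and 631 (3.03%). With only peaks whose −log10 q reached 2, 224 genes were lower and 223 higher by 25 points. The median −log10 q was 1.99 over 8-cell peaks and 2.48 over morula peaks. Most genes had no peak to lose, since 37.6% had any covered base in 8-cell embryos and 39.3% in morulae. The genes that changed by 25 points were short, with a median span of 3540 bp for those that lost and 2778 bp for those that gained coverage against 17629 bp over all genes. The 371 genes that lost coverage were covered to a median of 39.1% at the 4-cell stage and 0% in CC, ICM and TE. The 180 genes that gained coverage were covered to a median of 36.8% in CC, 15.8% at the 4-cell stage, 14.0% in ICM and 4.86% in TE. Predicted genes named Gm made up 36.1% of the genes that gained and 18.1% of those that lost coverage, against 5.90% of all genes.

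The Hox genes, the homeobox transcription factors that pattern the body axis long after implantation, lost coverage in all 4 clusters. Of the 39 Hox genes on the HoxA to HoxD clusters, 20 were covered at least 25 points less in morulae and 0 at least 25 points more, where 1.78% of all genes were called lower. A further 7 were lower by 10 to 25 points, 4 by less, and 8 had no peak at either stage. Hoxb13, on chromosome 11 (96194316 to 96197447), was covered to 100% in 8-cell embryos and by no morula peak. Hoxd12 was covered to 94.9%, Hoxb5 to 84.8%, Hoxb7 to 76.6%, Hoxb1 to 75.5% and Hoxa4 to 72.1% in 8-cell embryos, and each was free of peaks in morulae, in ICM and in TE. With only peaks whose −log10 q reached 2, 15 Hox genes were lower by 25 points, net of those higher. Morula peaks were left on few Hox genes, among them Hoxa6 (42.6% covered), Hoxb3 (25.9%), Hoxa3 (10.1%) and Hoxc5 (0.432%).

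Coverage of whole clusters gave the same picture between genes. The HoxA cluster (chromosome 6, 52155590 to 52260880) was covered to 45.96% in 8-cell embryos and 4.99% in morulae, the HoxB cluster (chromosome 11, 96194316 to 96368256) to 41.5% and 6.92%, the HoxC cluster (chromosome 15, 102921103 to 103036852) to 17.9% and 1.499%, and the HoxD cluster (chromosome 2, 74668310 to 74765142) to 19.02% and 0.859%. Over the 4 clusters together, coverage was 4.68% in CC, 17.1% at the 2-cell, 35.5% at the 4-cell and 32.5% in 8-cell embryos, 4.04% in morulae, 0.915% in ICM and 1.395% in TE. The clusters are rich in GC (48.96% to 50.01%) and poor in repeats (13.4% to 24.6% soft-masked), as lost windows were in general, and whether coverage there moved apart from base composition was not tested.

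**Figure D3:**
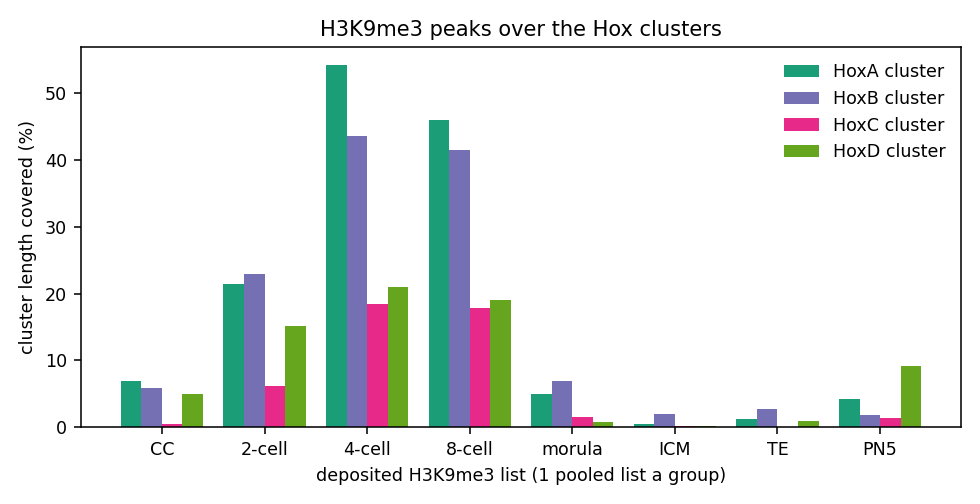
Percentage of the length of each Hox cluster covered by H3K9me3 peaks (y axis) in 8 of the 10 deposited lists (x axis), 1 pooled list a group and no error bars because there are no replicates. Of these 8 lists the 4-cell and 8-cell ones are highest for all 4 clusters, and HoxA stands at 45.96% in 8-cell embryos and 4.99% in morulae.

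**Figure D4:**
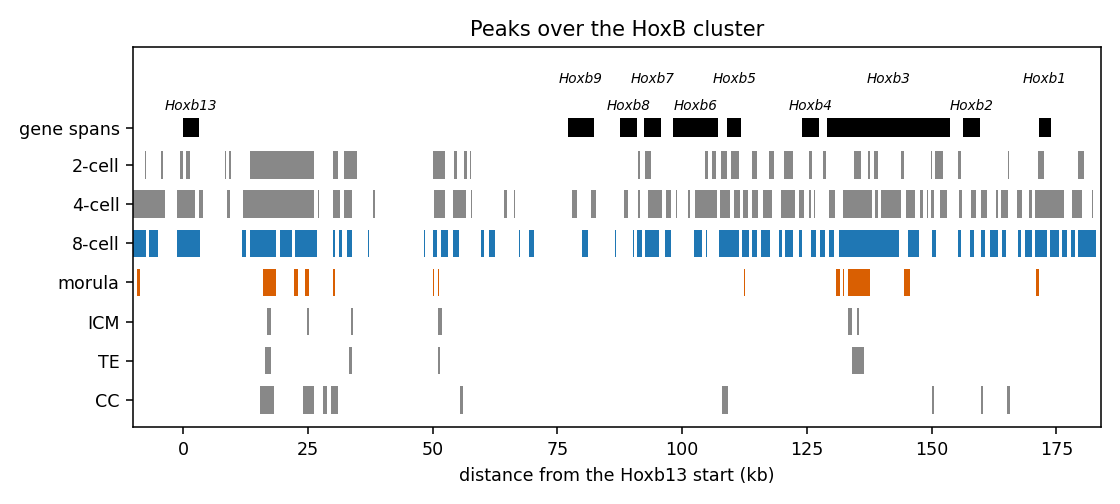
Peaks over the HoxB cluster, drawn to scale by distance from the Hoxb13 start in kb (x axis), for 7 lists (rows), with the gene spans in black. Blocks cover 41.5% of the cluster in 8-cell embryos, 6.92% in morulae and 2.06% in ICM, and the longest morula block lies over Hoxb3.

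Keratin-associated protein, keratin and kallikrein genes formed the other large block of losses counted by gene. Of 57 keratin-associated protein genes, which encode matrix proteins of the hair shaft, 20 (35.1%) were covered at least 25 points less and 4 (7.02%) at least 25 points more in morulae. Over all genes 1.78% were called lower and 0.865% higher. The summed spans of the 57 genes were covered to 32.3% and then 12.8%. They come to 0.0646 Mb, so in genes this short 1 narrow peak can pass the step. The keratin and kallikrein genes were set out as groups after their values had been seen. Of 53 keratin genes, 20 (37.7%) were at least 25 points lower and 0 higher (30.3% and 12.9% of their summed spans). Krt14, which with Krt5 forms the filaments of basal keratinocytes, was covered to 72.3% and then by no peak, and Krt15 to 98.4% and 18.8%. Krt8 and Krt18, the keratins of simple epithelia and of trophectoderm, had no peak at either stage. Of 27 kallikrein genes, which encode serine proteases and of which 26 lie in 1 cluster on chromosome 7, 9 (33.3%) were at least 25 points lower and 1 (3.70%) higher, with Klk1b21 at 90.6% and then 15.4%. With only peaks whose −log10 q reached 2, the net counts lower were 7 for keratin-associated protein, 13 for keratin and 4 for kallikrein genes, where they had been 16, 20 and 8. Many of these genes have close paralogs, so reads may have been shared among copies. Other genes with large losses were Cyp21a1, the steroid 21-hydroxylase (78.7% to 0%), Tnfsf14, a cytokine of the tumour necrosis factor family (77.7% to 0%), and the predicted gene Gm13694 (73.0% to 0%). With only peaks whose −log10 q reached 2, the change of Tnfsf14 was only -11.4 points, while those of Cyp21a1 and Gm13694 were -70.0 and -58.9.

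Wnt and Frizzled, Sox and potassium channel genes were lower in small numbers, though at shares above the 1.78% of all genes. With only peaks whose −log10 q reached 2, the net counts lower were 0 for Wnt and Frizzled, 0 for Sox and 1 for potassium channel genes. With all peaks, of 29 Wnt and Frizzled genes, which encode secreted ligands and their receptors, 3 (10.3%) were at least 25 points lower and 0 higher. Wnt9b was covered to 31.4% and then by no peak, Wnt7a to 40.7% and 9.81%, and Wnt3 to 36.8% and 9.95%. Of 92 potassium channel genes 5 (5.43%) were lower and 0 higher, led by Kcnf1 with 65.2% and 6.83%. Of 18 Sox genes 2 (11.1%) were lower, namely Sox14 (26.3% to 0%) and Sox1 (25.4% to 0%). Of 41 Fox genes 1 was lower (2.44%, against 1.78% of all genes), Foxi1 (74.0% to 26.7%). Of 358 solute carrier genes 3 were lower and 0 higher, a share of 0.838% that lies below the 1.78% of all genes. Among the other large families the counts lower and higher were 29 and 17 of 1128 olfactory receptor genes, 8 and 8 of 208 vomeronasal type 1 receptor genes, 6 and 2 of 100 cytochrome P450 genes, 1 and 1 of 92 ribosomal protein genes, 2 and 0 of 67 histone cluster genes, 4 and 4 of 64 defensin genes and 3 and 0 of 57 clustered protocadherin genes. Over all genes 1.78% were lower and 0.865% higher. The ribosomal protein genes called were Rpl10-ps3 (57.9% to 0%) and Rpl9-ps1 (0% to 68.75%), whose names mark pseudogenes.

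The genes with the largest gains were of several kinds. Gm340 on chromosome 19 (41582370 to 41586536) was covered by no 8-cell peak and in full in morulae, ICM and TE. Syna, which encodes the placental fusion protein syncytin-A of retroviral origin, was covered to 0% in 8-cell embryos, 88.8% in morulae, 67.03% in ICM and 40.9% in TE. Adam6a, of the ADAM metalloprotease family, was covered to 6.57% and 83.1%, and Gm16429 to 9.47% and 83.0%. Coverage of both was lower again in the blastocyst, with Adam6a at 0% in ICM and 20.4% in TE and Gm16429 at 21.8% and 0%. Both had been covered in CC, Adam6a to 93.3% and Gm16429 to 100%, and at the 4-cell stage to 21.7% and 72.2%. Tubb4b, a beta-tubulin, went from 0% to 49.5%, with 86.9% in TE. Mptx2, of the pentraxin family, went from 0% to 52.0%, with 30.2% in ICM and 4.33% in TE.

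Some gene clusters had more members higher than lower by 25 points, where 0.865% of all genes were called higher. Of the 22 major urinary protein genes, which encode carriers of pheromones, 9 were covered at least 25 points more and 1 at least 25 points less in morulae, with 21.3% and then 35.03% of their summed spans covered. Mup10 was covered to 4.47% and then 63.0%. Of the 14 secretoglobin 2B genes 3 were higher and 1 lower, though 6 were higher and 6 lower by any amount, with Scgb2b3 at 21.4% and 81.8%. Both groups were set out after their values had been seen, and with lists of equal length the net count of major urinary protein genes, as lower minus higher, was -5 in place of -8. Their copies are nearly identical, so the coverage of any 1 copy is uncertain. Among 60 serpin genes, inhibitors of serine proteases, 3 were higher and 1 lower, with Serpina5 at 2.79% and 48.02% and Serpina6, which encodes the corticosteroid carrier of blood, at 26.4% and 71.2%. Of 119 vomeronasal type 2 receptor genes 0 changed by 25 points, while 12 were at least 10 points higher and 0 at least 10 points lower, where 3.03% of all genes were called higher by 10 points.

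The Zfp genes, many of which encode KRAB zinc finger proteins that recruit H3K9 methylation to transposable elements, were more often covered more than less in morulae. Of 385 genes 52 were at least 10 points higher and 9 at least 10 points lower, against 3.03% and 5.01% of all genes, and at 25 points the counts were 6 and 2. The summed spans were covered to 5.93% in 8-cell embryos and 8.10% in morulae, with 14.7% in CC. Zfp988 was covered to 19.3% in 8-cell embryos, 60.999% in morulae, 60.7% in ICM and 100% in CC. Zfp110 was covered to 30.7%, 60.7%, 87.1% and 93.5% in the same lists. The copies of these genes share sequence as well.

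**Figure D5:**
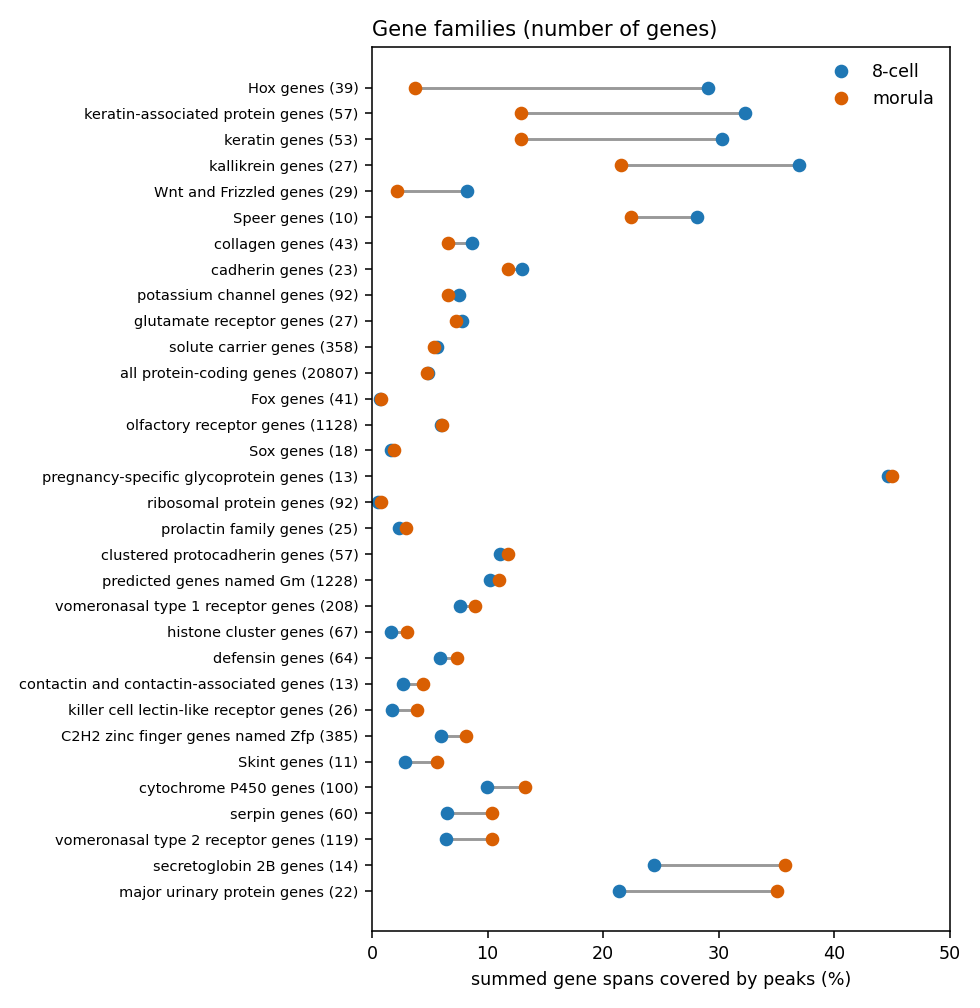
Percentage of the summed gene spans covered by H3K9me3 peaks (x axis) for each gene family (y axis, number of genes in brackets) in 8-cell embryos and in morulae, ordered by the difference. Hox genes move from 29.1% to 3.70% and major urinary protein genes from 21.3% to 35.03%, while all protein-coding genes stand at 4.85% and 4.71%.

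Regulators of the first lineages and of the mark itself rarely passed the steps used. None of 25 pluripotency regulators, 16 primitive endoderm regulators, 28 genes of compaction and polarity, 18 of the blastocoel and junctions, 27 of H3K9 methylation or 21 of DNA methylation differed by 10 points over their spans. The same held for a list of 22 loci that the study names, which leaves out its Usp17l, Zscan4 and Dux loci. Those were placed with the 2-cell genes, where Usp17la, Usp17lb, Usp17lc, Zscan4b and Zscan4e passed 10 points and Duxf3 was covered to 100% at both stages. The largest change among the pluripotency regulators was that of Esrrb, a nuclear receptor of naive pluripotency, covered to 11.04% and then 1.10%. Of 20 trophectoderm regulators 1 passed 10 points, Bmp4, a signalling ligand, with 10.3% and then 0%. Most of these genes bore few peaks at either stage, so the lists could hardly have shown a fall for them.

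Some imprinted, germline and 2-cell genes passed the step of 10 points. Of 54 imprinted genes 6 were at least 10 points lower and 2 higher, against 5.01% and 3.03% of all genes. Magel2 was covered to 49.5% and then by no peak and its neighbour Mkrn3 to 38.3% and then by no peak, both with no peak in ICM. In TE Magel2 had no peak and Mkrn3 was covered to 10.8%. Igf2, the fetal growth factor, was covered to 19.01% and then by no peak, while Zrsr1 was covered to 37.1% and 66.5% and Blcap to 16.9% and 34.2%. Rasgrf1 was covered to 33.1% and 20.8%, Mcts2 to 100% and 79.6% and Rtl1 to 21.1% and 10.7%. With only peaks whose −log10 q reached 2, the balance of imprinted genes by 25 points turned towards gains. Of 45 germline and meiosis genes 3 were lower, Tdrd6 of the piRNA pathway (43.1% to 10.8%), Tex101 (52.4% to 29.1%) and Syce1 of the synaptonemal complex (20.0% to 0%), and 0 higher, a share of 6.67% against 5.01% of all genes. Of 46 genes of the 2-cell stage 5 were lower and 5 higher. Tdpoz3 was covered to 94.5% and then by no peak, Zfp809 to 21.4% and 4.38%, Zscan4b to 25.5% and 8.70%, Usp17la to 15.7% and then 0%, and Zscan4e to 13.5% and then 0%. Usp17lc was covered to 0% and 33.5%, Obox3 to 24.9% and 39.3%, Obox1 to 27.4% and 38.8%, Usp17lb to 54.6% and 65.7%, and Gm20767 to 28.9% and 40.8%. The spans of Obox1 and Obox3 overlap, and the promoter of Obox1 went the other way, from 60.8% to 23.1%. Coverage of Zfp809 was higher again in the blastocyst, at 52.5% in ICM and 64.4% in TE. Most of these 2-cell genes lie in clusters of near copies.

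Promoters of these lists, from 1 kb before to 1 kb after the gene start, differed by at least 10 points in some genes whose spans did not. Atf7ip, a cofactor of SETDB1, had 14.1% of its promoter covered in 8-cell embryos and 29.2% in morulae, and Mbd1, a reader of methylated DNA, 2.90% and 47.98%. The promoter of Ascl2, a trophoblast transcription factor, was covered to 11.8% and then 0%. Among germline genes the promoter of Mael was covered to 26.3% and then 0%, while those of Stag3, Tdrd9 and Fkbp6 were higher, at 0% and 24.9%, 0% and 13.2%, and 78.0% and 95.003%. Among imprinted genes that of Nnat was covered to 34.1% and 75.5%, that of Inpp5f to 0% and 36.5%, that of Peg10 to 88.5% and 100%, and that of Sgce, its neighbour, to 83.5% and 96.1%. Among 2-cell genes those of Obox5 (94.8% to 0%), Obox2 (72.2% to 34.5%) and AF067061 (22.4% to 0%) were lower, and those of Pramef6 (0% to 38.2%), Gm13078 (0% to 32.3%), Zfp352 (0% to 27.1%) and Usp17ld (0% to 10.9%) were higher.

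Fewer promoters were marked in morulae when all peaks were used. A promoter, taken as the 1 kb on either side of the gene start, was called marked if at least 50% of it lay in a peak or at least 50% of a peak lay in it. By that rule 1414 promoters (6.80%) were marked in 8-cell embryos and 1064 (5.11%) in morulae, with 675 kept, 739 lost (3.55% of all promoters) and 389 gained (1.87%). With only peaks whose −log10 q reached 2, 408 were lost and 411 gained. Of the lost promoters, 82.9% had no covered base in morulae. The number marked was lower in morulae in each class of CpG content. It went from 108 to 74 of 10385 high-CpG, from 250 to 159 of 3831 intermediate and from 1056 to 831 of 6591 low-CpG promoters. Promoters marked in ICM or TE were 19.4% of the lost and 45.5% of the gained promoters, and those marked in CC 19.9% and 42.9%.

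Among the promoters lost with the highest fold, that of Fasl, the ligand of the death receptor Fas, was covered to 18.7% in 8-cell embryos (fold 4.78), that of Defa23, an intestinal defensin, to 7.60% (fold 4.10), and that of Krtap4-6 to 69.6% (fold 3.98), each with no covered base in morulae. Krtap9-3 and Pkib were called lost only because of the rule, since 34.98% and 9.995% of their promoters were covered in morulae, more than the 20.7% and 5.15% in 8-cell embryos. Coverage moved against the call in 23 of the 739 lost and 16 of the 389 gained promoters. Among the promoters gained with high fold were those of Slc22a8, an organic anion transporter (fold 5.49), Ndfip1, an adaptor of ubiquitin ligases (fold 4.98), and Actr10, of the dynactin complex (fold 4.59), with 7.85%, 25.3% and 17.8% of their promoters covered in morulae and no base in 8-cell embryos.

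The longest gained stretches were more soft-masked than the longest lost ones, but their GC contents overlapped. Among gained stretches, 13 adjacent windows lay on chromosome 3 (3011001 to 3024000) and 13 on chromosome 7 (64483001 to 64496000), both intergenic, with morula coverage of 95.2% and 100% and coverage in CC of 95.1% and 100%. The next were intergenic as well, with 9 windows on chromosome 6 (37792001 to 37801000), 8 on chromosome 8 (104771001 to 104779000) and 8 on chromosome 12 (19708001 to 19716000). The 5 gained stretches were soft-masked at 51.2% to 96.6% of their bases and had GC contents of 40.5% to 48.6%. The longest lost stretch had 9 windows on chromosome 7 (46346001 to 46355000), over exons of the noncoding gene 1700025L06Rik and 21474 bp from Myod1, the muscle transcription factor. The others had 8 windows each, on chromosome 4 (140373001 to 140381000, over Gm13016), chromosome 5 (30487001 to 30495000, over exons and introns of Cib4), chromosome 5 (147738001 to 147746000, over Gm43156) and chromosome 6 (117702001 to 117710000, over 1700030F04Rik). The 5 lost stretches were soft-masked at 15.9% to 43.5% of their bases and had GC contents of 45.7% to 50.6%. Coverage of the lost stretches in ICM was at most 14.7%, and that of the gained stretches at least 60.9%. In TE the lost stretches were covered to at most 26.8% and the gained stretches to at least 42.5%.

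The peaks of highest fold that met no peak of the other list were narrow and few. Beside the simple repeat on chromosome 11, the 8-cell list had a 175-bp peak in an intron of Fgfr2 (chromosome 7, 130362759 to 130362933, fold 27.7) and a 324-bp peak over an exon of Gm13340 within Myo3a (chromosome 2, 22588747 to 22589070, fold 19.3), which was also covered in full in CC. The morula list had a 440-bp peak in an intron of Galntl6 (chromosome 8, 58517828 to 58518267, fold 76.7) and a 139-bp intergenic peak on chromosome 12 (62551075 to 62551213, fold 23.1), beside the repeat on chromosome 2.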

How the data were processed

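H3K9me3 was profiled by native ChIP-seq of pooled blastomeres, with micrococcal nuclease digestion. Per the submitters' processing notes, reads were trimmed with cutadapt 1.16, aligned to mm10 with BWA mem, merged with SAMtools, and treated with Picard, by which duplicates were removed and every group drawn to 1 common read number. MACS2 (broad option, against input) gave the peaks, and its version and threshold are not given in the sources used here. The methods text and the labels differ in the number of replicates, and which libraries entered a list is not settled here. Each deposited list holds, for every broad peak, a fold enrichment (the authors' ratio of ChIP to input from MACS2) and a mean −log10 q. The read number of single libraries was not analysed here.

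Coverage was computed with Python 3.11.15 code (pandas 2.3.3, numpy 2.4.6), tested on simulated peaks. Windows of 1 kb needed at least 50% assembled bases and were marked at 50% coverage. GC, CpG and soft-masking came from GRCm38.p6 (no peak ran past a chromosome end), and gene models were GENCODE M21. Gene calls used steps of 25 and 10 points. CpG classes used 500-bp windows in steps of 10 bp (high: a window with CpG ratio from 0.75 and GC from 55%, low: none above 0.48). Named were the 10 largest changes each way among protein-coding genes of at least 2 kb with up to 2 a name stem, 5 promoters, 5 stretches and 3 peaks each way, and list genes that changed by 10 points; genes named beyond that rule, and the keratin, kallikrein, urinary protein and secretoglobin groups, were chosen after values were seen. The comparison and all lists were chosen with earlier results of these data known. No tests were run, because the deposited lists pool the libraries. Some genes that the naming rule gives are not reported here.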

Additional observations from a re-analysis of the deposited data

Results flagged for a closer look

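Peaks outside the autosomes were not used in the comparison and exceeded the 3 that a count of 0 allows. The 8-cell list had 14735 peaks on the X chromosome, 400 on the Y chromosome and 5 on the mitochondrial chromosome, and the morula list 16585 on X and 594 on Y. Nuclei and oocytes were of females, so peaks on Y do not stand for a Y chromosome of these embryos, and how many peaks elsewhere rest on misplaced reads was not tested. These values were not compared between the stages.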

How the results depend on the processing

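No paired analysis was possible because each stage has 1 list made from pooled libraries, and leaving out a replicate was likewise not possible. With the longer list trimmed to equal length by −log10 q, 44.99% of 8-cell windows were lost and 47.9% of morula windows gained. Of the gained windows 52.4% were soft-masked at 50% of bases or more, 40.3% of them lay next to an 8-cell mark and 57.3% were marked in ICM or TE, and 31.3% of lost windows lay next to a morula mark. With −log10 q of at least 2 in both lists the ratio of covered length was 1.44, 35.4% were lost and 55.4% gained, 5.93% and 23.0% of lost and gained windows lay below 40% GC, 51.3% of gained windows were soft-masked to that degree, 27.7% and 36.9% of gained and lost windows lay next to a mark of the other stage, 23.1% and 60.4% of lost and gained windows were marked in ICM or TE, 224 genes were lower by 25 points and 408 promoters were lost, so that losses no longer outnumbered gains (223 genes and 411 promoters). Peaks of at least 500 bp gave a ratio of 1.15 and the same window shares. When any covered base marked a window, 35.3% were lost and 38.9% gained, 19.2% and 40.7% lay below 40% GC, 45.3% of gained windows were soft-masked to that degree, 42.3% and 39.9% of gained and lost windows were neighbours of the other stage's mark, and 6.72% and 24.9% of lost and gained windows were in ICM or TE. When 90% had to be covered, 44.97% were lost and 55.96% gained. Steps of 50 and 10 points gave 50 and 631 genes with more and 116 and 1043 with less coverage. When 50% of the promoter had to be covered, 150 promoters were gained and 281 lost. Alternatives chosen after seeing the data were genes of at least 2 kb, with 104 higher and 246 lower, and windows of 44 to 46% GC, where 19.8% of lost and 43.2% of gained windows were soft-masked to that degree, 37.1% and 38.6% of lost and gained windows had such neighbours and 19.6% and 51.9% were in ICM or TE.

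In each of these settings lost windows were less often soft-masked, above 40% GC more often and marked in ICM or TE less often than gained windows, wherever both were computed. Turned round were the counts of genes lower minus higher by 25 points with −log10 q of at least 2, to -2 for imprinted genes, -1 for cytochrome P450 genes and -30 for Gm genes. The Hox count of 20 was 20 at equal length and 15 with −log10 q of at least 2, where the keratin-associated count of 16 was 7, the keratin count of 20 was 13 and the kallikrein count of 8 was 4. The cause of these moves was not tested. The groups were drawn to 1 read number, and a place without a peak was below the calling level at that depth.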
